A study of Mus musculus with 4 samples.

Results

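The 10 genes studied here belong to the MHC class I presentation pathway and were followed through single-cell RNA profiles of mouse mammary epithelium. They were chosen by name, and all 10 are among the 31053 genes of the count tables: H2-K1, H2-D1, B2m, Tap1, Tap2, Tapbp, Psmb8, Psmb9, Psme1 and Nlrc5. The mice were of the FVB strain with the genotype Tfap2cfl/fl / Krt5-CreERT2, so that every animal, controls included, carried the floxed Tfap2c alleles and a tamoxifen-dependent Cre recombinase driven by the promoter of the basal keratin gene Krt5. From week 4 after birth they received corn oil, the vehicle, or 4OHT (4-hydroxytamoxifen) daily for 5 days (another label gives a week), and the fourth mammary glands were taken at week 9. Each group had 2 mice and 1 library per mouse. The design asks how the mammary epithelium changes when Tfap2c, a transcription factor gene, is deleted by the recombinase.

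Class I molecules carry peptides from inside a cell to its surface, where CD8 T cells read them. The proteasome cuts proteins into peptides, the TAP transporter moves the peptides into the endoplasmic reticulum, and a loading complex places them on a heavy chain paired with beta-2 microglobulin. Interferons raise nearly every gene of the pathway, and they exchange subunits of the ordinary proteasome for those of the immunoproteasome. Nlrc5 encodes the transactivator of the class I genes.

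Cells were assigned to classes by their keratin and marker counts. Of 18223 cell barcodes, 17832 held at least 1000 UMIs (unique molecular identifiers, each standing for 1 captured RNA molecule). In the order corn oil replicates 1 and 2, then 4OHT replicates 1 and 2, which is kept below, the basal class held 1496, 1933, 1421 and 2178 cells. The luminal progenitor class held 1290, 1132, 1770 and 1437 cells, and the hormone-sensing luminal class held 151, 330, 240 and 447. Marker genes that were not part of the class rule followed the names. The summed level of 6 basal markers was 3801 to 5036 CPM (UMIs of a gene per 1000000 UMIs of the class) in basal cells and 28.2 to 238 CPM in the luminal classes. The 6 progenitor markers summed to 5730 to 8425 CPM in progenitors, 1127 to 2632 CPM in basal cells and 264 to 431 CPM in hormone-sensing cells. Most of the basal amount was Lcn2, while Kit had at most 0.306 CPM there. The 6 hormone-sensing markers reached 1162 to 2162 CPM in their class and at most 127 CPM in the others. All 6 fibroblast markers together stood at 1346 CPM in the hormone-sensing class of 4OHT replicate 1, against 53.5 to 243 CPM in that class elsewhere, and its 10 leukocyte markers stood at 36.7 CPM against 0.771 to 4.12 CPM. Counts of called genes between this class and another, and its member median for 4OHT, are therefore also given without that library. Median depth was 2828 to 5153 UMIs per basal cell, 3473 to 5282 per progenitor and 4746 to 8258 per hormone-sensing cell, and any pair of libraries shared 18 to 36 barcodes.

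The targeted gene did not separate the groups. Tfap2c stood at 389, 285, 285 and 325 CPM in basal cells, from 1692 to 3145 UMIs a library, and the groups overlapped there and in both luminal classes. The 4OHT value in basal cells differed from corn oil by a log2 fold change of -0.08 (SE 0.25; adjusted p = 0.999, edgeR quasi-likelihood test). The files do not say which part of Tfap2c was floxed, and 3′ counts outside that part would not show its removal. Groups are therefore called by their labels, and no direction below rests on a verified loss of the gene.

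Of the 10 genes, 7 lie in the MHC region of chromosome 17 (GRCm38, GENCODE M21): Tapbp at chr17:33915899-33929292, H2-K1 at chr17:33996017-34000347, Psmb9 at chr17:34181987-34187764, Tap1 at chr17:34187553-34197225, Psmb8 at chr17:34197721-34201454, Tap2 at chr17:34203527-34216321 and H2-D1 at chr17:35262730-35267499. B2m is at chr2:122147686-122153083, Psme1 at chr14:55578123-55581529 and Nlrc5 at chr8:94434356-94527272. Psmb9 and Tap1 are divergent neighbours whose RefSeq start sites lie 225 bases apart, and their gene models overlap on opposite strands.

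The sequences before the RefSeq starts are shown as a description, and their part in the levels was not tested. H2-K1, H2-D1 and B2m were higher together in hormone-sensing cells and in cells rich in interferon-stimulated RNAs, but so were other members. Psmb9 (log2 fold 1.54) and Psmb8 (1.06), which lack the arrangement that those genes share, were also higher in hormone-sensing cells than in progenitors. RefSeq windows on GRCm38.p6, from 250 bases before the start to 50 after it, were found for 8 of the 10 genes, not for Tap2 and Nlrc5. Capitals mark matches to the motifs described next. The 250 bases before H2-K1 (chr17:34000334-34000583, minus strand) and before B2m (chr2:122147437-122147686, plus strand) read, 5′ to 3′:
H2-K1: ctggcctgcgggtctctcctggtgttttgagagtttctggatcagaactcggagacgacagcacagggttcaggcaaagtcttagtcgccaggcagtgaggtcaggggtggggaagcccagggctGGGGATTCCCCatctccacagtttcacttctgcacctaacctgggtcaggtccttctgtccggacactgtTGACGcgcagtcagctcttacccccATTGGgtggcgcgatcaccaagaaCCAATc
B2m: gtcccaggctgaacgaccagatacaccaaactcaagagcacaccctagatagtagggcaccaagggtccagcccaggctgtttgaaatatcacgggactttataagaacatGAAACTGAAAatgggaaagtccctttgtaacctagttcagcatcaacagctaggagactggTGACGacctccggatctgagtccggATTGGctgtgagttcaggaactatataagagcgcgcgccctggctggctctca

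H2-K1, H2-D1 and B2m share a 30-base arrangement in which the core of the X2 box of class I promoters stands 20 bases before a CCAAT box of the opposite strand. Both ends are in capitals:
H2-K1: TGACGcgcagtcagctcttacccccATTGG
H2-D1: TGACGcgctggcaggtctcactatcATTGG
B2m: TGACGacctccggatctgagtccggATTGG
This spacing was noticed in these windows and then counted, on both strands: 31 of 32851 promoter windows hold it (0.0944%). By itself the X2 core, TGACG, is in 20.8% of windows and in 5 of the 8 members with a window, and CCAAT is in 37.4% of windows and in 6 of the 8. Tap1 and Psmb9 are counted separately in both, but their windows overlap by 275 bases and hold the same copy of each motif.

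H2-K1 and H2-D1 also share the palindromic kappa B motif printed below in capitals, which 10 of the 32851 windows hold (0.0304%). The H2-D1 copy lies at chr17:35262913-35262942 on the plus strand. The aligned promoter sequences of H2-K1 and H2-D1 are 63.2% identical, so their shared matches are not independent. Other pairs compared were 46.0% to 54.0% identical. The capitals mark the motif:
H2-K1: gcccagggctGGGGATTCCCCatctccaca
H2-D1: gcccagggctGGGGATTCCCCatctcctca
The interferon response core, a pair of GAAA stretches with any 2 bases between, is in 3.44% of windows and, among the members, in B2m and Psme1. The gamma-activated site core TTCNNNGAA is in 8.3% of windows and, among the members, in Psmb8. Tap1 holds TGACG on the DNA that it shares with Psmb9. The stretches with these 3 matches, for B2m, Psmb8 (chr17:34198087-34198116) and Tap1 (chr17:34187457-34187486), are, with the match in capitals:
B2m: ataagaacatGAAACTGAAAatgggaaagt
Psmb8: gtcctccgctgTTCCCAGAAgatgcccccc
Tap1: gcccagagacaggTGACGacagagggtcct
Starts differ between annotations: all 250 bases before the RefSeq starts of H2-D1, Psmb8 and Psmb9, 246 of those of Tap1, 244 of Tapbp and 139 of Psme1 lie in an annotated UTR of some GENCODE transcript, so the matches in H2-D1 and Psmb8 stand inside the gene spans given above. A match describes the letters only; no binding was measured.

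Among the 3 epithelial classes the pathway was highest in hormone-sensing luminal cells, the class that carries the receptors for oestrogen and progesterone. The 10 genes together made up 4690 to 5929 CPM there, 2290 to 2837 CPM in luminal progenitors and 2026 to 3941 CPM in basal cells. Every hormone-sensing value lay above every value of the other classes, and basal and progenitor values overlapped. A UMI count from a 3′ library counts molecules and is not divided by gene length. The FVB strain carries a different MHC haplotype from the C57BL/6J reference genome, which could lower how many H2-K1 and H2-D1 molecules are counted in every library alike; this was not tested.

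**Figure D1:**
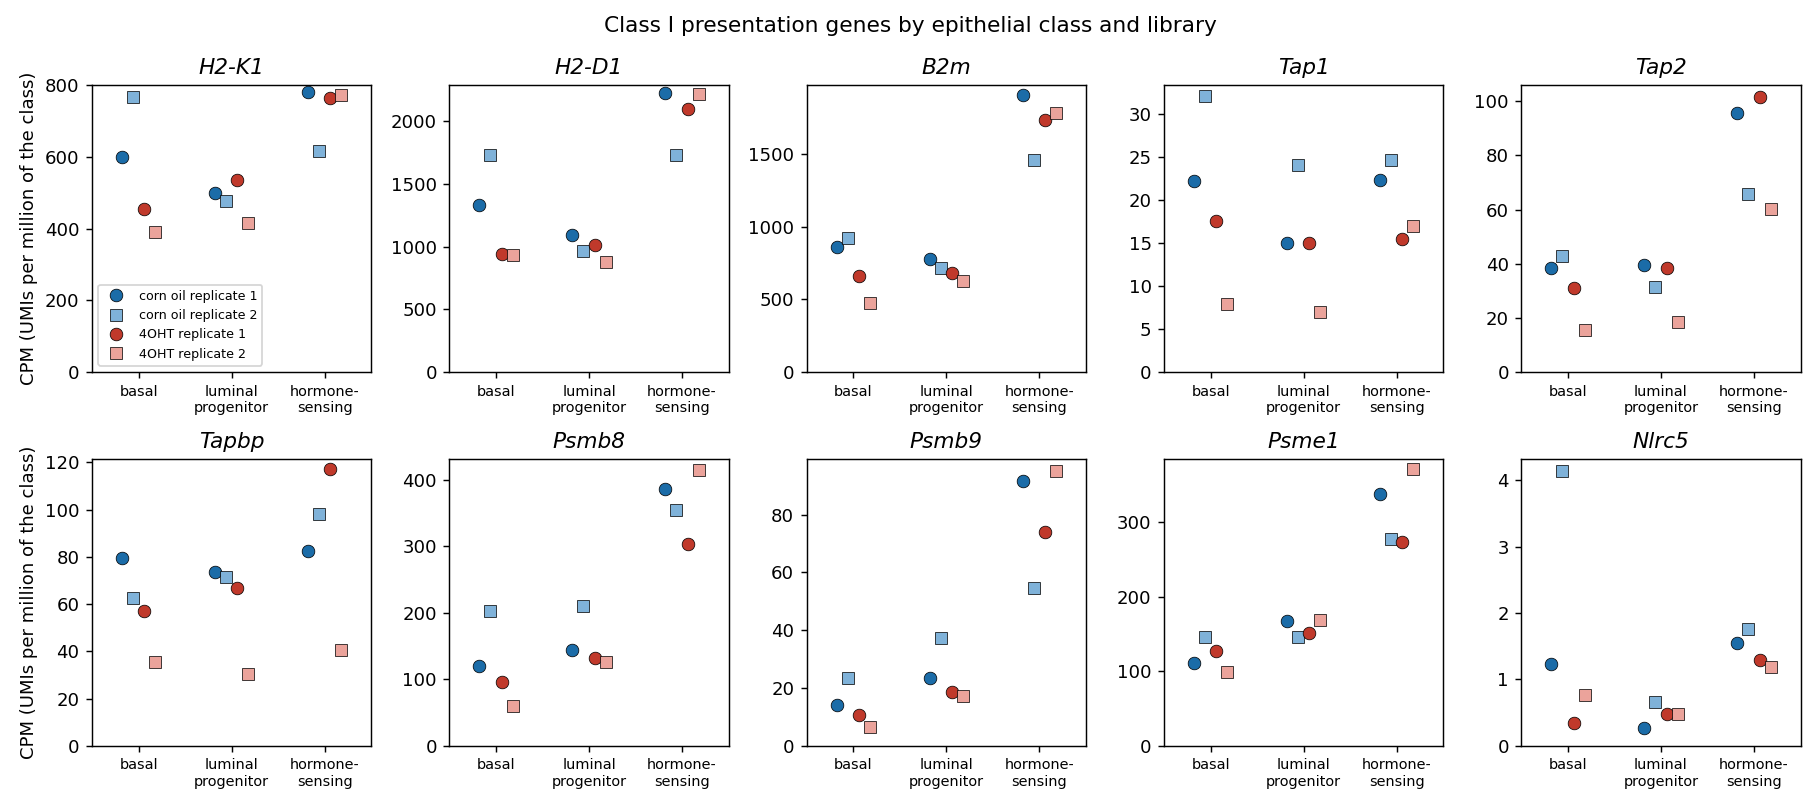
UMI level (CPM, linear axes from 0) of each gene in the 3 epithelial classes; each point is 1 library, blue for corn oil and red for 4OHT, circles for replicate 1 and squares for replicate 2. H2-D1, B2m, Psmb8, Psmb9 and Psme1 stand highest in hormone-sensing cells, and the red points of most genes lie under the blue ones in basal cells.

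The heavy chains and their light chain came first in abundance. H2-D1, a classical heavy chain, had 2224, 1736, 2098 and 2215 CPM in hormone-sensing cells, 1095, 968, 1011 and 879 CPM in progenitors and 1331, 1735, 942 and 936 CPM in basal cells. B2m, the light chain that every class I molecule needs, had 1905, 1462, 1735 and 1784 CPM in hormone-sensing cells, 781, 714, 681 and 625 CPM in progenitors and 861, 924, 659 and 473 CPM in basal cells. For both genes the hormone-sensing libraries lay above all progenitor libraries, and basal cells of the corn oil mice lay above those of the 4OHT mice. H2-K1, the other classical heavy chain, had 782, 616, 766 and 773 CPM in hormone-sensing cells, 499, 477, 537 and 417 CPM in progenitors and 601, 768, 455 and 392.1 CPM in basal cells. Its basal level in corn oil replicate 2 was within the hormone-sensing range. The 2 heavy chains kept a narrow ratio within a class: H2-D1 gave 2.74 to 2.87 UMIs per H2-K1 UMI in hormone-sensing cells, 1.88 to 2.2 in progenitors and 2.07 to 2.39 in basal cells.

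The transporter and loading genes were less abundant. Tap2, a subunit of the peptide transporter, had 95.6, 65.9, 102 and 60.2 CPM in hormone-sensing cells, 39.3, 31.2, 38.4 and 18.4 CPM in progenitors and 38.5, 43, 31.2 and 15.5 CPM in basal cells. Its partner Tap1 did not follow: it had 22.4, 24.7, 15.5 and 16.9 CPM in hormone-sensing cells, 15, 24.1, 15 and 6.92 CPM in progenitors and 22.2, 32.1, 17.5 and 7.89 CPM in basal cells, all 3 ranges overlapping. There were 0.152 to 0.375 Tap1 UMIs per Tap2 UMI in hormone-sensing cells and 0.377 to 0.772 in progenitors. Tapbp encodes tapasin, which bridges the transporter and the heavy chain, and it had 82.5, 98.2, 117 and 40.6 CPM, 73.8, 71.5, 66.9 and 30.6 CPM, and 79.5, 62.7, 57.1 and 35.5 CPM in the same 3 classes. Library 4OHT replicate 2 was the lowest of the 4 for Tap2 and Tapbp in every class, and for Tap1 in the basal and progenitor classes.

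The proteasome genes followed 1 order of classes. Psmb8, an immunoproteasome subunit, had 387, 354, 303 and 414 CPM in hormone-sensing cells, 144, 211, 132 and 126 CPM in progenitors and 121, 203, 95.7 and 60.3 CPM in basal cells. Psmb9, another immunoproteasome subunit, had 91.7, 54.7, 74 and 94.9 CPM, 23.4, 37.2, 18.4 and 17.4 CPM, and 14.1, 23.4, 10.8 and 6.53 CPM in the same order of classes. Psme1, a subunit of the PA28 proteasome activator, had 338, 277, 274 and 371 CPM, 167, 146, 152 and 169 CPM, and 111, 145, 128 and 98.4 CPM. For all 3 genes the order was hormone-sensing over progenitor over basal in each of the 4 libraries. Nlrc5 was near the limit of these data, with 2, 3, 2 and 3 UMIs in hormone-sensing cells, 2, 4, 4 and 3 in progenitors and 10, 27, 2 and 5 in basal cells. It did not pass the filter on low counts in the comparisons of whole classes or of treatments.

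Against luminal progenitors, 7 of the 9 tested genes were higher in hormone-sensing cells (edgeR with the library as a block, adjusted p under 0.05), where 26.1% of the 9514 genes tested were higher. Psmb9 was higher by a log2 fold of 1.54 (SE 0.21; adjusted p = 3.52e-05), Tap2 by 1.15 (SE 0.13), B2m by 1.08 (SE 0.11), Psmb8 by 1.06 (SE 0.13), H2-D1 by 0.85 (SE 0.11), Psme1 by 0.77 (SE 0.11) and H2-K1 by 0.39 (SE 0.11; adjusted p = 0.00911). Tap1 (0.26, SE 0.20) and Tapbp (0.26, SE 0.14) did not pass. The median over the 9 genes was 0.85, against 0.02 over all genes tested. All 7 genes also passed without 4OHT replicate 1, the library with the fibroblast markers, and H2-K1 alone failed without 4OHT replicate 2 (edgeR adjusted p = 0.0543). These folds are relative to TMM scaling, under which the median gene lies near 0. With library totals as the only scale, an alternative added after the data were seen, the median of all genes moved to 0.23, with 3157 genes higher and 1767 lower in place of 2483 and 2467. On that scale the same 7 genes passed, and Tapbp did too (0.47). Tapbp also passed by edgeR at a mean of at least 20 CPM (0.34, adjusted p = 0.0481) and at a keratin ratio of 10 (0.40, adjusted p = 0.017).

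In the main fit, only the 3 proteasome genes among the members passed between basal cells and progenitors. Psmb9 was lower in basal cells by a log2 fold of -1.14 (SE 0.17; edgeR adjusted p = 0.000242), Psmb8 by -0.73 (SE 0.17; adjusted p = 0.00355) and Psme1 by -0.68 (SE 0.15; adjusted p = 0.00308). These 3 of 9 genes compare with 26.3% of 10593 genes lower in basal cells, so the share is near the background. Of the 3 constitutive proteasome genes, 2 passed as lower too, with a median of -0.50. Psmb8 did not pass when the library was not a block (-0.63, edgeR adjusted p = 0.115). The heavy chains and B2m ranged from -0.26 (SE 0.14) for B2m to 0.00 (SE 0.16) for H2-D1, and none passed. Without corn oil replicate 2, H2-K1, B2m and Tap2 passed too, as lower in basal cells, at log2 folds of -0.34, -0.42 and -0.51. The sign for the heavy chains and B2m depends on the scale: with library totals only, the median of all genes moved from 0.04 to 0.32 (4329 genes higher and 1783 lower, against 3125 and 2789), and H2-D1 stood at 0.28, H2-K1 at 0.16 and B2m at 0.018, none passing. By library, the basal minus progenitor difference of log2(CPM + 1) was 0.27, 0.69, -0.24 and -0.089 for H2-K1 and 0.14, 0.37, -0.047 and -0.40 for B2m, above 0 in both corn oil libraries and below 0 in both 4OHT libraries. Psmb9, Psmb8 and Psme1 were lower in basal cells on the totals scale too, at -0.87, -0.45 and -0.40, and passed. Against hormone-sensing cells, 8 of 9 genes were lower in basal cells, among 27.9% of 10042 genes, from Psmb9 at -2.67 (SE 0.28) to H2-K1 at -0.51 (SE 0.17). Tap1 did not pass (-0.18, SE 0.22). H2-K1 and Tapbp lost that call without 4OHT replicate 1, H2-K1 also without corn oil replicate 1 or 4OHT replicate 2, and both when the library was not a block.

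**Figure D2:**
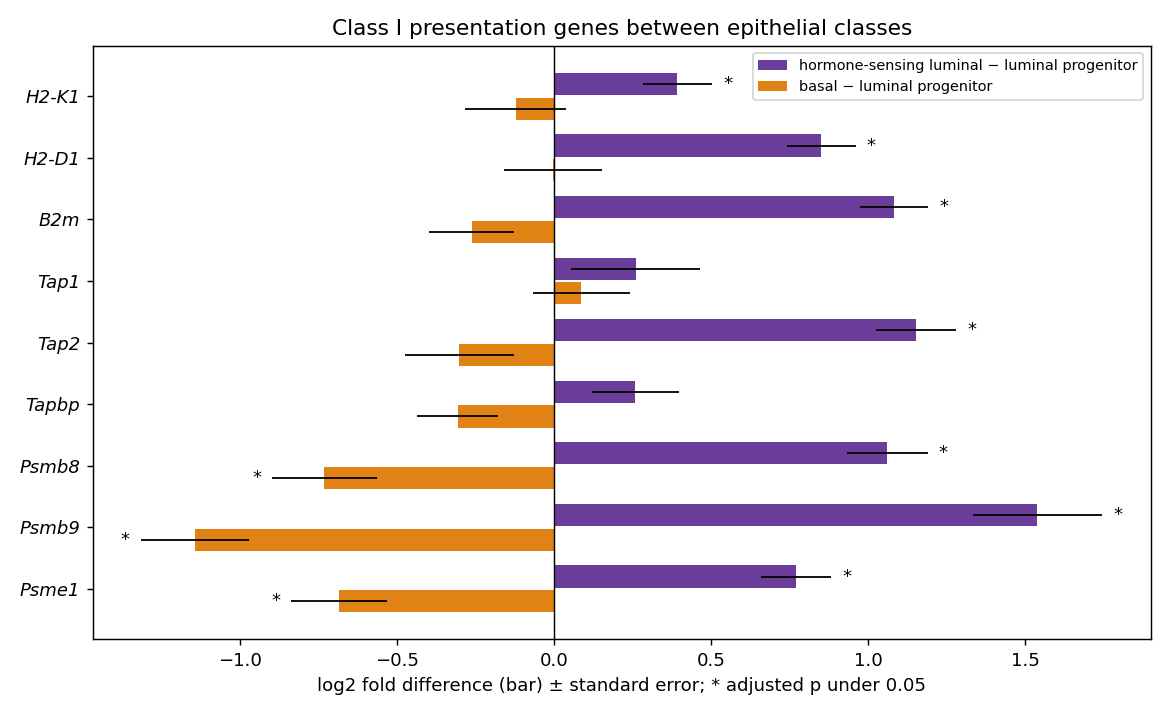
Log2 fold difference of 9 genes between epithelial classes (bars, linear axis) with standard errors, from 4 libraries with the library as a block; a star marks an adjusted p under 0.05. Purple bars, hormone-sensing over progenitor cells, reach 1.54 for Psmb9, and orange bars, basal over progenitor cells, pass only for Psmb8, Psmb9 and Psme1.

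Other genes of the pathway did not all share this order. Of 8 further class I or class I-like heavy chains tested, 7 were higher in hormone-sensing cells than in progenitors and 1 was lower (7 and 0 without 4OHT replicate 1). H2-T22 was higher by 1.52 and H2-Q6 by 1.77 on the log2 scale, and both are uncertain because 28.1% and 29.9% of their 3′ end windows also occur in other genes, such as H2-T10 and H2-Q7. The general chaperones of peptide loading went the other way: 4 of 6 loading genes were lower and 1 was higher (4 and 0 without 4OHT replicate 1), where 25.9% of all genes tested were lower, led by Calr (calreticulin, -1.36) and Pdia3 (ERp57, -1.004). Among partners of the immunoproteasome genes, Psmb10, another immunoproteasome subunit, was higher by 0.96 and Psme2, the partner of Psme1 in PA28, by 0.56.

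In sums of whole classes, most tested genes of an interferon list were lower in hormone-sensing cells than in progenitors. Cells with few interferon UMIs are compared further below. Of 16 tested genes of a list of 17 interferon-stimulated genes, which holds none of the 10 members, 10 were lower and 1 was higher in hormone-sensing cells than in progenitors, with a median log2 fold of -1.02, against 25.9% of all genes lower. Without 4OHT replicate 1 these were 9 and 1 of 15 (median -1.31), and with library totals only 8 and 2 of 16 (median -0.78). Isg15, a ubiquitin-like modifier, was lower by -2.06 and Ifit1, an antiviral RNA-binding protein, by -2.81. Among 15 tested regulators, 6 were lower and 5 higher (7 and 4 without 4OHT replicate 1), led by Ifngr1, a chain of the interferon gamma receptor (-1.65), and Irf7, a transcription factor that is also on the interferon list (-2.09). Between basal and hormone-sensing cells, 7 of 15 tested list genes were higher in basal cells and 2 were lower. The median log2 fold of basal over hormone-sensing cells was 0.30 for the list, and 3174 of all 10042 genes tested were higher in basal cells.

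RNA of the paired proteasome subunits was compared as ratios of UMIs, immunoproteasome over constitutive. The exchange of subunits in assembled proteasomes was not measured. Psmb8 gave 4.18, 3.81, 2.31 and 3.29 UMIs per UMI of Psmb5, its constitutive counterpart, in hormone-sensing cells, 1.40, 1.73, 1.04 and 1.37 in progenitors and 0.861, 1.22, 0.806 and 0.492 in basal cells. Psmb9 gave 0.643, 0.484, 0.511 and 0.481 UMIs per UMI of Psmb6 in hormone-sensing cells, 0.118, 0.159, 0.0854 and 0.078 in progenitors and 0.0838, 0.11, 0.06 and 0.0345 in basal cells. Hormone-sensing ratios lay above all others in every library for both pairs. The log2 difference from progenitors was 1.28 ± 0.21 (SD, n = 4 libraries) for Psmb8 to Psmb5 and 2.32 ± 0.48 for Psmb9 to Psmb6, with an exact two-sided sign-flip p of 0.125 for each, the smallest that 4 libraries allow. In the third pair, Psmb10 to Psmb7, hormone-sensing cells were again above progenitors in 4 of 4 libraries (1.27 ± 0.27), while basal cells were above progenitors in 3 of 4 (0.30 ± 0.49). Psmb5 itself did not pass between hormone-sensing and progenitor cells (-0.21, SE 0.13), while Psmb6 was lower by -0.78 and Psmb7 by -0.31; with library totals only, Psmb7 did not pass (-0.095).

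**Figure D3:**
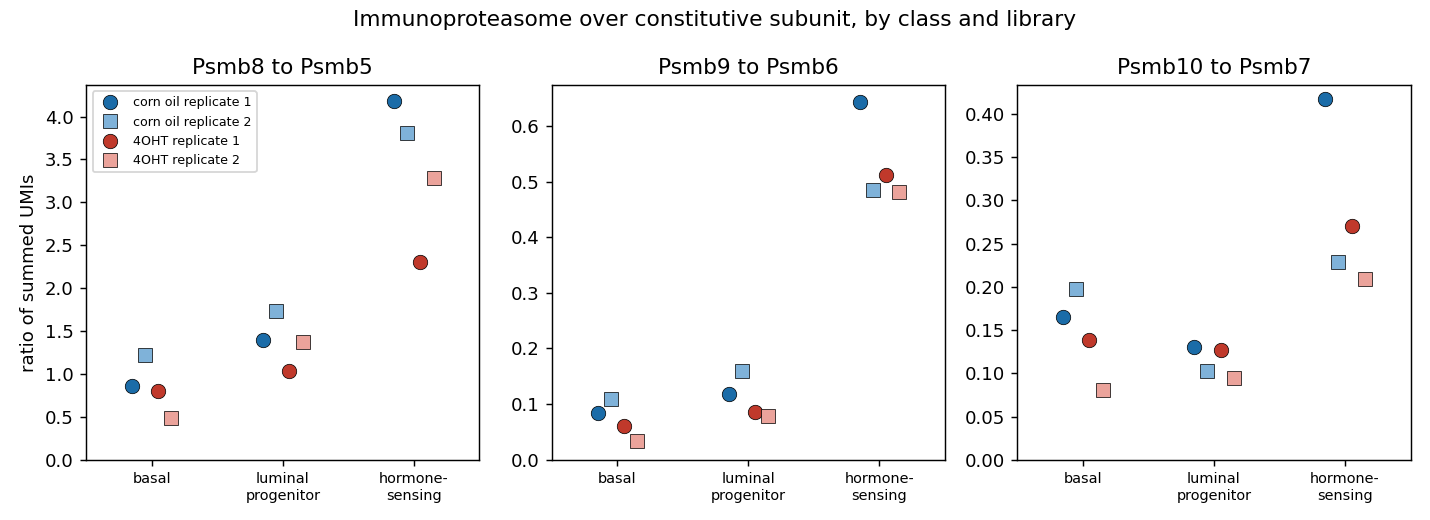
Ratio of summed UMIs of an immunoproteasome subunit to its constitutive counterpart by class (linear axes from 0); each point is 1 library, coloured by label. Ratios in hormone-sensing cells lie above those of both other classes in every library for Psmb8 to Psmb5 (2.31 to 4.18) and Psmb9 to Psmb6 (0.481 to 0.643).

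Endothelial cells and leukocytes, few in number, had more class I RNA than the epithelium. In 7, 64, 38 and 124 endothelial cells, B2m stood at 3949, 5080, 4657 and 4393 CPM and H2-D1 at 5329, 6198, 4591 and 4855 CPM, above every epithelial class. In 27 leukocytes each of corn oil replicate 2 and 4OHT replicate 1, B2m stood at 3473 and 3731 CPM and Psmb8 at 688 and 629 CPM; the other libraries had none. Fibroblasts numbered 83 and 31 in those same libraries, with B2m at 3439 and 4919 CPM, and 2 and 11 in the others. No Nlrc5 level could be read in these cells, where any library held at most 1 UMI. In the unclassed cells, which met neither keratin rule, H2-D1 stood at 1653, 1933, 1162 and 1230 CPM.

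Within the basal and progenitor classes the pathway followed the interferon genes from cell to cell. Each cell was thinned to 1000 UMIs, and cells with at least 3 UMIs of the interferon list were set against the rest. Basal cells at or above this threshold numbered 176, 287, 61 and 79, which is 11.8%, 14.8%, 4.29% and 3.63% of the class. In progenitors they numbered 131, 173, 173 and 63, or 10.2%, 15.3%, 9.77% and 4.38%. Both 4OHT libraries were below both corn oil libraries in each class.

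The light chain and the heavy chains were higher in interferon-high basal cells. B2m had 2406, 1975, 2585 and 1412 CPM in interferon-high basal cells and 601, 694, 534 and 428 CPM in the rest. H2-D1 had 3171, 3606, 2655 and 2113 CPM against 1022, 1325, 831 and 879 CPM. Every library showed the difference, and the high and low ranges did not overlap for either gene.

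The immunoproteasome and transporter genes differed most. Psmb8 had 505, 767, 709 and 525 CPM in interferon-high basal cells and 56, 79.6, 56 and 38 CPM in the rest. Tap1 had 92.8, 128, 102 and 63.1 CPM against 10.4, 11, 12 and 5.2 CPM. With edgeR and the library as a block, 9 of 9 tested genes were higher in interferon-high basal cells, where 17.9% of 9395 genes were higher. The log2 folds were 3.39 for Psmb9 (SE 0.20; adjusted p = 4.48e-10), 3.08 for Psmb8 (SE 0.13), 2.96 for Tap1 (SE 0.18), 2.32 for Tap2 (SE 0.15), 2.25 for Tapbp (SE 0.15), 1.503 for B2m (SE 0.12), 1.47 for Psme1 (SE 0.13), 1.249 for H2-K1 (SE 0.11) and 1.13 for H2-D1 (SE 0.10). Their median was 2.25, against 0.02 over all genes. With library totals only, the median of all genes moved to 0.39 (3301 genes higher and 1008 lower, against 1685 and 1843), all 9 genes passed and their median was 2.62.

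In progenitors 8 of 9 genes were higher in interferon-high cells, among 17.2% of 8717 genes. Tap1 was higher by 2.53 (SE 0.21), Psmb9 by 2.28 (SE 0.16), Tapbp by 2.23 (SE 0.15), Psmb8 by 1.56 (SE 0.15), Tap2 by 1.31 (SE 0.19), H2-D1 by 1.20 (SE 0.14), B2m by 1.10 (SE 0.15) and H2-K1 by 1.05 (SE 0.14). Psme1 did not pass (0.30, SE 0.13, edgeR adjusted p = 0.0816), but it did at a mean of at least 20 CPM (0.42, edgeR adjusted p = 0.0114). It also passed with library totals only (0.82, edgeR adjusted p = 0.000134), where the median of all genes was 0.53 (3698 genes higher and 680 lower, against 1499 and 1706). Nlrc5 gave 13 UMIs in interferon-high basal cells and 31 in the rest, and 9 against 4 in progenitors, and in neither class did it pass the filter on low counts.

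The rest of the pathway split in the same comparison. In basal cells 6 of 7 further heavy chains were higher and none passed as lower, led by H2-T23 (2.43) and H2-T22 (2.79). In the proteasome group 2 of 3 genes were higher, Psmb10 by 3.18 and Psme2 by 1.88. Among loading genes 4 of 6 were lower, led by Calr (-1.83) and Pdia3 (-1.28), and 2 were higher. Among regulators 9 of 14 were higher and 1 was lower (12 and 0 with library totals only), among them Irf7 (4.48), which is on the interferon list. Of the constitutive subunits, Psmb5 was higher by 0.67 while Psmb6 (0.20) and Psmb7 (0.15) did not pass; with library totals only, all 3 were higher.

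Cells above the threshold were not matched in other respects. Median depth was 6308, 3899, 5736 and 3449 UMIs in interferon-high basal cells and 5003, 3035, 3808 and 2799 in the rest. The 6 progenitor markers summed to 3394, 4417, 2156 and 3325 CPM in the former and 1206, 2241, 1060 and 1990 CPM in the latter, while the 10 leukocyte markers summed to at most 5.54 CPM in either. In interferon-high progenitors the leukocyte sum was 31.5 CPM in 4OHT replicate 1 and at most 1.23 CPM in the other libraries. There the progenitor markers summed to 10479, 9603, 14555 and 10343 CPM, against 5645, 4969, 5709 and 8344 CPM in the other progenitors, and the endothelial markers of 4OHT replicate 2 summed to 198 CPM against 52.0 CPM. The part of these markers and of depth in the results was not tested.

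Levels climbed in steps with the number of interferon UMIs, below the threshold as well as above it. Mean Psmb8 over the 4 libraries was 46.1 CPM in basal cells with 0 thinned interferon UMIs, 111 with 1, 273 with 2, 378 with 3 to 4, 619 with 5 to 9 and 1090 with 10 or more. Mean B2m went from 514 to 866, 1327, 1480, 2225 and 2793 CPM over the same bins. Psme1 went from 86.1 to 518 CPM in basal cells and from 140 to 312 CPM in progenitors. Some bins were thin: in basal cells as few as 18 cells of a library had 2 UMIs or 5 to 9, and as few as 8 had 10 or more, where B2m fell back in 4OHT replicate 2.

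**Figure D4:**
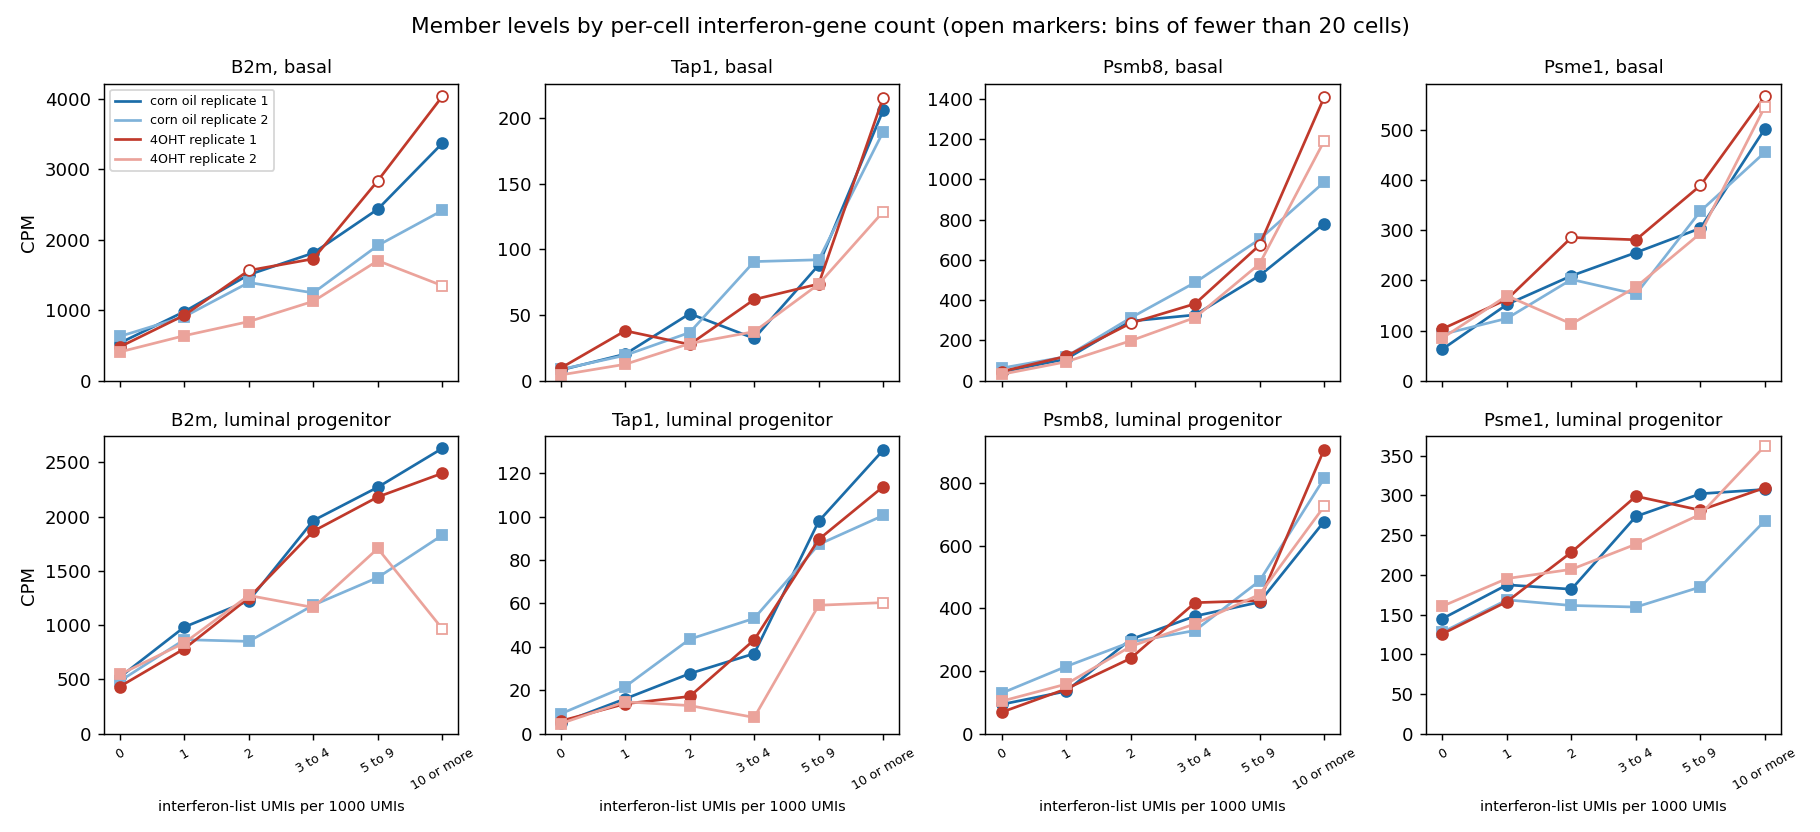
Level (CPM, linear axes from 0) of B2m, Tap1, Psmb8 and Psme1 by the number of interferon-list UMIs per cell after thinning to 1000 UMIs, for basal cells (top) and luminal progenitors (bottom); each line is 1 library, and open markers are bins of fewer than 20 cells. Mean basal Psmb8 rises from 46.1 CPM at 0 to 1090 CPM at 10 or more.

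Hormone-sensing cells stood high already at 0 thinned interferon UMIs, which does not mean that their full counts held none. In cells below the threshold of 3, the full counts of the interferon list summed to 401, 535, 384 and 305 CPM in hormone-sensing cells. The sums were 269, 439, 283 and 207 CPM in progenitors and 202, 257, 135 and 106 CPM in basal cells. The part of this in the member levels was not tested. In cells with none after thinning, Psmb8 was 297 to 404 CPM in hormone-sensing cells, 68.2 to 129 CPM in progenitors and 32.1 to 63 CPM in basal cells. B2m was 1397 to 1883 CPM, 434 to 545 CPM and 409 to 630 CPM in the same classes. Tap2 was 55.6 to 108 CPM, 16.8 to 28.8 CPM and 10.7 to 20.7 CPM. For Psmb8, B2m and Tap2 the hormone-sensing range lay wholly above the others. Tap1, which did not pass between the whole classes, was 13.9 to 24.3 CPM, 4.62 to 9.12 CPM and 4.43 to 9.66 CPM, again with the hormone-sensing range above both others. Only 5, 26, 14 and 10 hormone-sensing cells reached the threshold of 3, and with them as a group Psmb8 stood at 308 to 567 CPM against 303 to 411 CPM in the rest; no test was made on so few cells. In 4OHT replicate 1 those few cells held leukocyte markers at 561 CPM and fibroblast markers at 2881 CPM, in 4OHT replicate 2 fibroblast markers stood at 1681 CPM (210 CPM in the rest) and endothelial markers at 399 CPM (70.6 CPM in the rest), and the part of these in their values was not tested.

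The step at the interferon threshold differed between basal and progenitor cells for 4 of 10 genes. In an edgeR interaction test that was added after these values were seen, the log2 difference was larger in basal cells by 1.51 for Psmb8 (SE 0.20; adjusted p = 1.82e-05), 1.15 for Psme1 (SE 0.19), 1.10 for Psmb9 (SE 0.25) and 1.01 for Tap2 (SE 0.25; adjusted p = 0.0102), where 4.24% of 10370 genes were higher. With library totals only, where the median of all genes moved from 0.01 to -0.13 (290 genes higher and 648 lower, against 440 and 494), the same 4 genes passed, at 1.38, 1.02, 0.97 and 0.87. Tap2 lost its call without corn oil replicate 1 (0.84; adjusted p = 0.0932). The interferon list itself had a larger step in basal cells, with 12 of 17 genes passing and a median difference of 0.99, so the basal cells above the threshold also differed more in the genes that defined them. Below the threshold, mean levels in basal cells were under those in progenitors for all 4 genes. They were 57.4 against 115 CPM for Psmb8, 94.2 against 147 for Psme1, 5.7 against 14.7 for Psmb9 and 19.9 against 24.8 for Tap2. Above it, basal means were higher for Psmb8 (626 against 473 CPM), Psme1 (333 against 260) and Tap2 (129 against 87.6), but lower for Psmb9 (78.7 against 98.3). H2-D1 (-0.08, SE 0.19), Tapbp (0.01, SE 0.20; -0.12 with library totals only) and H2-K1 (0.18, SE 0.19) did not pass, and Nlrc5, tested here on few UMIs, did not pass (-2.64, SE 1.16).

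The spread between single cells was wider than that of genes of like abundance for some members. In thinned basal cells the variance of Psmb8 was 1.23 to 1.59 times its mean over the libraries, against 1.03 to 1.1 for the median gene within 1.25-fold of its level. Among cells below the interferon threshold, Psmb8 gave 0.993 to 1.12 against 1.02 to 1.04 in basal cells and 1.03 to 1.23 against 1.05 to 1.07 in progenitors. B2m gave 1.47 to 1.82 in basal cells, against 1.28 to 1.43, and 1.65 to 2.03 in progenitors, against 1.35 to 1.56. Below the threshold B2m gave 1.30 to 1.5 in basal cells, against 1.22 to 1.46, and 1.51 to 1.81 in progenitors, against 1.29 to 1.57.

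In basal cells, where Krt5 drives the recombinase, 9 of 10 genes had both 4OHT libraries below both corn oil libraries, and none passed the test. Nlrc5, counted among them, had few UMIs and was not tested. All values are those given by class above; only Psme1 overlapped (111 and 145 CPM in corn oil, 128 and 98.4 CPM in 4OHT). With the edgeR quasi-likelihood test, 0 of 10788 genes were called in basal cells (0%), so no member was either; 465 had an unadjusted p under 0.05, and DESeq2 called 38, none of them a member. Among tested genes 17.6% had both 4OHT libraries lower, and so had 8 of the 9 tested members. The edgeR fit did not use the replicate number, while deviations of same-numbered libraries correlated at 0.728 in basal cells. With that number as a block genes were called, as counted in the closing section, and no member was among them.

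Fold changes of the members in basal cells ran from -1.10 to -0.16. The log2 fold change was -1.10 for Psmb9 (SE 0.38), -1.09 for Tap1 (SE 0.40), -1.04 for Psmb8 (SE 0.34), -0.79 for Tap2 (SE 0.33), -0.67 for H2-D1 (SE 0.25), -0.66 for H2-K1 (SE 0.24), -0.63 for B2m (SE 0.23), -0.59 for Tapbp (SE 0.27) and -0.16 for Psme1 (SE 0.25), each with an adjusted p of 0.999 by edgeR. The median was -0.67 against -0.02 over all genes, and 6 of 9 had an unadjusted p under 0.05, where 4.31% of all genes did. Leaving out a library raised the count of genes called to between 17 and 127. Without corn oil replicate 1, Psmb8 was the 1 member among 59 genes called (-1.41; edgeR adjusted p = 0.045).

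Values in luminal cells lay nearer to 0. In progenitors 5 of the 9 tested genes had both 4OHT libraries lower (17.5% of tested genes did). By edgeR, 0 of 10120 genes were called and 166 (1.64%) had an unadjusted p under 0.05, no member among them. DESeq2 called 1. Values ran from -0.74 (SE 0.40) for Tap1 to 0.13 (SE 0.27) for Psme1, with a median of -0.24. With library totals only the median of all genes in progenitors moved from -0.02 to -0.11, and no member passed. In hormone-sensing cells 1 of the 9 tested genes had both 4OHT libraries lower (13.5% of tested genes did), and so had Nlrc5, untested and on few UMIs. There 1 of 7589 genes was called by edgeR (0.0132%), not a member. The member values ran from -0.58 (SE 0.34) for Tap1 to 0.20 (SE 0.30) for Psmb9, with a median of 0.04 (0.13 without 4OHT replicate 1). The difference of the 4OHT effect between basal and progenitor cells was below 0 for 9 of 9 genes, from -0.71 (SE 0.25) for H2-K1 to -0.04 (SE 0.28) for Tapbp. None of them, and 0 of 11434 genes in all, passed (edgeR interaction), with 4 members and 429 genes (3.75%) at an unadjusted p under 0.05; DESeq2 called 1.

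**Figure D5:**
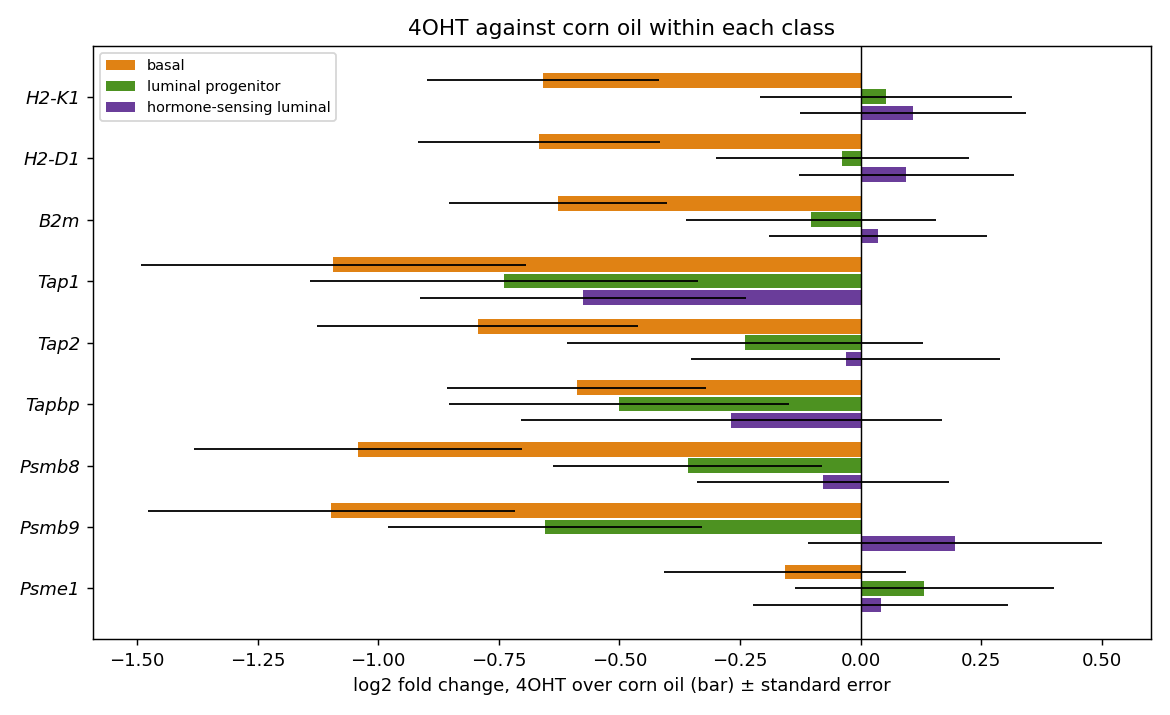
Log2 fold change of 4OHT over corn oil for 9 genes in each epithelial class (bars, linear axis) with standard errors, from 2 libraries a group. All 9 orange bars of basal cells point below 0, from -1.10 to -0.16, and no bar passes the adjusted threshold.

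Most values of the interferon list lay below 0 in all 3 classes, and none passed the adjusted threshold. In basal cells 16 of 16 tested list genes were below 0, with a median of -1.62. Of these, 13 had an unadjusted p under 0.05 by edgeR, where 4.31% of all genes did. In progenitors 15 of 17 were below 0 (median -0.59), 3 with an unadjusted p under 0.05. In hormone-sensing cells 11 of 14 were below 0 (median -0.55), and 3 had an unadjusted p under 0.05. Interferon-high cells supplied 60.2%, 67.8%, 45.1% and 39.8% of the basal Psmb8 UMIs, 40.2%, 38.4%, 23.9% and 13.6% of the B2m UMIs and 34.3%, 37.4%, 17.2% and 10.3% of the H2-D1 UMIs. These shares were lower in both 4OHT libraries for all 3 genes. They depend on how many cells are interferon-high, which was 11.8% and 14.8% of basal cells in corn oil and 4.29% and 3.63% in 4OHT. The shares are therefore no separate result about the genes. In basal cells below the threshold, a subset chosen after the data were seen, 8 of 9 genes were below 0. Their median was -0.44, against -0.006 over all genes tested. Psmb8 was at -0.56 (SE 0.30), H2-K1 at -0.48 (SE 0.25), H2-D1 at -0.46 (SE 0.26) and B2m at -0.44 (SE 0.23). Psme1 was at 0.18 (SE 0.26). This subset was not matched for the interferon list, which summed to 202 and 257 CPM in corn oil and to 135 and 106 CPM in 4OHT. The part of that difference in the member values was not tested. No gene of 10489 was called there by edgeR, 313 had an unadjusted p under 0.05, and no member did. Among interferon-high basal cells the median was -0.15, with H2-D1 at -0.53 (SE 0.23) and Psmb8 at -0.08 (SE 0.30).

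The genes most like the pathway in their pattern were sought over all sums. Over the 12 sums of 4 libraries and 3 classes, the genes whose log2 level was most like the summed level of the 10 members, among the 4141 genes whose mean reached 20 CPM, were Psmb10 (Pearson r = 0.965), H2-T22 (0.960), Glmp (0.958), Agps (0.954) and Prdx6 (0.953). Without H2-K1, H2-D1 and B2m, which make up most of the sum, they were Smarcd2 (0.975), Psmb10 (0.963), Cox5a (0.963), Jpt1 (0.960) and H2-T22 (0.960). The 12 sums share 4 libraries and follow the class difference for the most part, so these are descriptions.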

How the data were processed

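Single-cell 3′ libraries were counted with Cell Ranger 3.0.1 on mm10, per the submitters' processing notes; the deposited values are UMI counts per gene and cell. No cells were removed as doublets in the main analysis. Cells with at least 1000 UMIs were classed by keratin sums (basal: Krt5, Krt14, Krt17 and Acta2; luminal: Krt8, Krt18 and Krt19; at least 5 UMIs and more than 3 times the other sum) and luminal cells by Ly6d, Fxyd2 and Gpx3 against Wfdc18, Csn3 and Ltf. Counts were summed per library and class and tested over all genes with edgeR 4.0.16 (quasi-likelihood, TMM, filterByExpr, R 4.3.3) at a Benjamini-Hochberg adjusted p of 0.05; contrasts within libraries had the library as a block. Tests of 4OHT had 2 libraries a group, 17351950 to 22017878 UMIs each. Scripts were tested on simulated counts. Named genes were all members and, of each pathway list, the 2 genes of smallest p and the constitutive proteasome genes. Members and lists were chosen with earlier results of these data known. Alternatives were DESeq2 1.42.0, other filters, scaling (library totals only was added later), classes, depth, doublet scores and leaving out libraries. A gene that the naming rule selects is not reported here.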

Additional observations from a re-analysis of the deposited data

Results flagged for a closer look

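For 4 genes the difference between interferon-high and other cells was itself different in basal cells and luminal progenitors, by an edgeR interaction test. The log2 difference, basal minus progenitor, was 1.51 for Psmb8, 1.15 for Psme1, 1.10 for Psmb9 and 1.01 for Tap2. The interferon list that defined the split differed in the same direction, and the part of that in these values was not tested. Mean levels below the threshold were lower in basal cells than in progenitors for all 4 genes. Above it, Psmb9 was also lower in basal cells (78.7 against 98.3 CPM).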

How the results depend on the processing

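Of 141 alternative values of member counts, 139 were unchanged or within 1.5 times the main count, and of 1264 alternative values of single members 1200 kept direction and call, 45 reversed in sign, 9 lost a call and 10 gained one; unless a cause is named, it was not tested. Counts of all genes called moved more. For 4OHT against corn oil in basal cells, 93 genes were called with no filter on low counts, 38 with DESeq2 and 7 in interferon-high cells only. In progenitors these were 39 with no filter, 1 with DESeq2 and 1 with a keratin ratio of 10. In hormone-sensing cells they were 59 with no filter, 7 with DESeq2 and 0 with a mean of at least 20 CPM or with 2000 UMIs per cell. The difference between basal cells and progenitors gave 55 with no filter and 1 with DESeq2. At 20 CPM, where fewer genes were tested, the class contrasts called 2595 (basal against progenitor), 2477 (hormone-sensing against progenitor) and 2925 genes (basal against hormone-sensing). With the replicate number as a block, 167, 9 and 3 genes were called in basal, progenitor and hormone-sensing cells; the labels do not say what a number shares, and deviations of same-numbered libraries correlated at 0.728, 0.469 and 0.238.

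Leaving out 1 library at a time, where the lone library of a group is assumed to vary like the others, gave 17 to 127, 31 to 64 and 4 to 80 genes called in basal, progenitor and hormone-sensing cells, 0 to 53 for the difference of the 4OHT effect and 444 to 773 for that of the interferon split. Members called ran from 0 to 1 for 4OHT in basal cells and from 3 to 6 for basal against progenitor cells. Log2 folds of 4OHT that changed sign ran from -0.38 to 0.14 for Psme1 in basal cells. In progenitors they ran from -0.069 to 0.17 for H2-K1, -0.15 to 0.11 for H2-D1, -0.19 to 0.016 for B2m, -0.79 to 0.15 for Tap2 and -0.013 to 0.28 for Psme1. In hormone-sensing cells they ran from -0.058 to 0.15 for B2m, -0.43 to 0.28 for Tap2, -1.18 to 0.29 for Tapbp, -0.36 to 0.14 for Psmb8, -0.056 to 0.52 for Psmb9 and -0.23 to 0.26 for Psme1. Basal against progenitor cells ran from -0.34 to 0.030 for H2-K1 and -0.23 to 0.14 for H2-D1, and basal against hormone-sensing cells from -0.34 to 0.10 for Tap1. The difference of the 4OHT effect ran from -0.31 to 0.23 for Tapbp and -0.67 to 0.094 for Psme1, and that of the interferon split from -0.0046 to 0.072 for Tapbp.

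Signs also changed under other settings. For 4OHT these were Psme1 at 0.18 in interferon-low and Tapbp at 0.10 in interferon-high basal cells, H2-D1 at 0.017 (keratin ratio of 10) and 0.11 (interferon-low cells) in progenitors, Tap2 at 0.34 and Psmb8 at 0.048 in interferon-high progenitors, and Tap2 at 0.018 in hormone-sensing cells (keratin ratio of 10). H2-D1 in basal against progenitor cells was at 0.068 with 20 CPM and 0.046 with no library block, and the split difference of Tapbp was at -0.0042 with 20 CPM. With library totals only, an alternative added after the data were seen, these were H2-K1 at -0.034 for 4OHT in progenitors, Tap2 at 0.0020 for 4OHT in hormone-sensing cells, Tapbp at 0.024 for the difference of the 4OHT effect and -0.12 for the split difference, and H2-K1 at 0.16, H2-D1 at 0.28 and B2m at 0.018 in basal against progenitor cells. With 2 mice a group, basal differences as large as that of Psmb8 (-1.04, SE 0.34) did not pass, and Nlrc5 was below the filter on low counts.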
